A study of Mus musculus with 26 samples.

Results

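The lipoprotein lipase system of brown adipose tissue (BAT) was followed through 10 genes chosen by name: the lipases Lpl and Lipg, the endothelial anchor Gpihbp1, the maturation factors Lmf1, Lmf2 and Sel1l, the inhibitor Angptl4, the receptor Vldlr and the apolipoproteins Apoe and Apoc1. All 10 were found among the 50686 genes listed and all 10 passed the filter on low counts, which kept 17286 genes. BAT of 26 male C57BL/6J mice was sequenced after rRNA depletion, as stranded total RNA. The mice labelled FAKO (fat-specific Afadin knockout) carried a floxed Afdn gene (also called Mllt4) and Cre driven by the Adiponectin promoter, which is active in white as well as brown adipocytes and not in the other cells of the tissue. The control mice were littermates without this deletion. Before tissue was taken, all mice, aged 12 to 16 weeks, spent 2 weeks at thermoneutrality (30 °C in the labels, 29 °C in the methods of the study). The groups were 7 control mice and 7 mice labelled FAKO kept at thermoneutrality, and 5 control mice and 7 mice labelled FAKO moved to 5 °C for 6 h.

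Lipoprotein lipase hydrolyses the triglycerides of chylomicrons and very low density lipoproteins on the wall of capillaries and so supplies fatty acids to the tissue. The enzyme is made in adipocytes, where it matures in the endoplasmic reticulum with the help of Lmf1 and Sel1l, is carried across the capillary wall by Gpihbp1, and is inactivated by Angptl4. In brown fat, uptake of lipoprotein lipids by this route is known to be a fuel supply for heat production in cold.

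Lmf1, Lmf2 and Sel1l belong to the part of the system inside the endoplasmic reticulum, and their transcripts were lower in cold in both genotypes. The bases just before their start sites are shown because all 3 fell in cold, as about 1 in 3 genes did. They come from RefSeq promoter windows of 250 bases on GRCm38.p6, limited to the stretch that no annotated exon covers, and run 5′ to 3′ on the strand of the gene. Capitals mark 3 motifs on either strand. These are the CCAAT box, the sequence written CCACG that accompanies it in stress response elements, and the GC box, which was searched as GGGCGG. The stretch of Lmf1 is chr17:25578924-25579084 on the plus strand, that of Lmf2 is chr15:89355660-89355718 on the minus strand and that of Sel1l is chr12:91849158-91849407 on the minus strand.
Lmf1: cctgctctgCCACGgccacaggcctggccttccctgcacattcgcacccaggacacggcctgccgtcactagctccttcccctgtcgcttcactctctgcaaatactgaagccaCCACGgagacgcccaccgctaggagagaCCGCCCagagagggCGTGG
Lmf2: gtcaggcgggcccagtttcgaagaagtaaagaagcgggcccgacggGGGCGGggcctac
Sel1l: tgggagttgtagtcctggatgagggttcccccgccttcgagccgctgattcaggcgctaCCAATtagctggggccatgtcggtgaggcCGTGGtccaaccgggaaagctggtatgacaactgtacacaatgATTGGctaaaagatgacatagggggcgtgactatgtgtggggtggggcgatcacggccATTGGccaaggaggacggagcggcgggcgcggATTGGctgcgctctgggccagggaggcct

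Over its whole window of 250 bases, Sel1l held 4 matches to CCAAT and 1 to CCACG, and Lmf1 held 5 to CCACG and none to CCAAT. Lmf2 held neither and had 2 matches to GGGCGG. When the CCAAT box is followed by CCACG at a distance of 9 bases, they form the endoplasmic reticulum stress response element. This arrangement was in none of the windows of Lmf1, Lmf2 and Sel1l and in 0.113% of the 32851 windows of the table. On their own, CCAAT was in 33.8% of all windows, CCACG in 28.3% and GGGCGG in 32.7%. The window of Lmf2 overlaps the first exon of Ncaph2 on the other strand. The table holds windows for 5 of the 10 members, with Vldlr and Apoe as the others. Lpl, Gpihbp1, Angptl4, Lipg and Apoc1 are named only.

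The libraries held between 12705969 and 25732258 counts (median 17237377). All 12 brown adipocyte markers were found. Afdn was not lower in the mice labelled FAKO at thermoneutrality, with 154 to 231 CPM (the usual normalised count, relative to the library total after scaling by TMM factors) against 151 to 214 CPM in control mice. After cold it had 53.3 to 65.3 CPM against 67.9 to 79.2 CPM. The genotypes are therefore named by their labels. These counts cover the whole gene and all cells of the tissue, so they cannot show whether the deletion took place in adipocytes. At the protein level, the study reports a smaller rise of Afadin in cold in BAT of FAKO mice. Its supplement also compares Afadin protein between the genotypes at thermoneutrality, in blots whose outcome was not read here. Control mouse 7 at thermoneutrality stood apart, with 14.3% of its counts from mitochondrial genes, the lowest of the 26, and the highest stromal marker sum of its group, 987 CPM. The summed level of the 10 skeletal muscle markers ran from 1.07 to 8737 CPM over all mice and reached 6163 CPM in control mouse 7.

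The effect of cold was asked first. Genes were tested with the quasi-likelihood method of edgeR, and every edgeR adjusted p is corrected by Benjamini-Hochberg over all 17286 genes. After 6 h at 5 °C, 3 members rose in control mice (Lpl, Lipg and Gpihbp1), 4 fell (Lmf1, Lmf2, Sel1l and Apoe) and 3 did not pass the test (Angptl4, Vldlr and Apoc1). In mice labelled FAKO the same 3, 4 and 3 genes rose, fell and did not pass. Cold changed most genes: 31.6% of those tested rose and 33.4% fell in control mice, 5454 against 5779 genes, and 33.7% rose and 34.9% fell in mice labelled FAKO, 5825 against 6035 genes. With scaling by library size alone, the split was 4165 against 6243 in control mice and 3223 against 8384 in mice labelled FAKO. The counts of members were therefore close to the background, and what set Lpl and Lipg apart was the size of the change. In control mice 149 of 17286 genes had a larger log2 fold change than Lipg and 415 a larger one than Lpl. The median log2 fold change of the members was -0.14 against -0.01 for all genes tested in control mice, and 0.03 against -0.03 in mice labelled FAKO.

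Other marker sets moved with cold as well, and their part in the members' changes was not tested. The 12 brown adipocyte markers summed to 7991 to 9501 CPM in control mice and 7470 to 9306 CPM in the FAKO group at thermoneutrality. After cold the sums were 28850 to 31510 CPM and 28740 to 36710 CPM. Of the 12, 5 rose and 3 fell in control mice, and 6 rose and 4 fell in mice labelled FAKO. Lpl was not set against these markers. The 4 nuclear-retained RNAs summed to 8951 to 10570 CPM in control mice and 10420 to 11780 CPM in the FAKO group at thermoneutrality, and to 14840 to 16270 CPM and 10340 to 13580 CPM after cold. In cold 3 of the 4 rose in control mice, 2 rose and 1 fell in mice labelled FAKO, and 2 of the 4 were lower in the difference of the cold responses. The 5 red blood cell genes all rose in mice labelled FAKO and none passed in control mice, while their difference of responses gave 0 of 5. Their sums were 289 to 609 CPM at thermoneutrality and 517 to 1497 CPM after cold in mice labelled FAKO, and 233 to 1120 CPM and 417 to 684 CPM in control mice. The 3 white adipocyte markers summed to 288 to 508 CPM and 286.5 to 437.5 CPM at thermoneutrality, and to 65.8 to 85.9 CPM and 67.3 to 125 CPM after cold. Taken singly in cold, 1 of the 3 fell and 0 rose in control mice, and 2 fell and 1 rose in mice labelled FAKO. Their sum therefore does not stand for each marker.

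**Figure D1:**
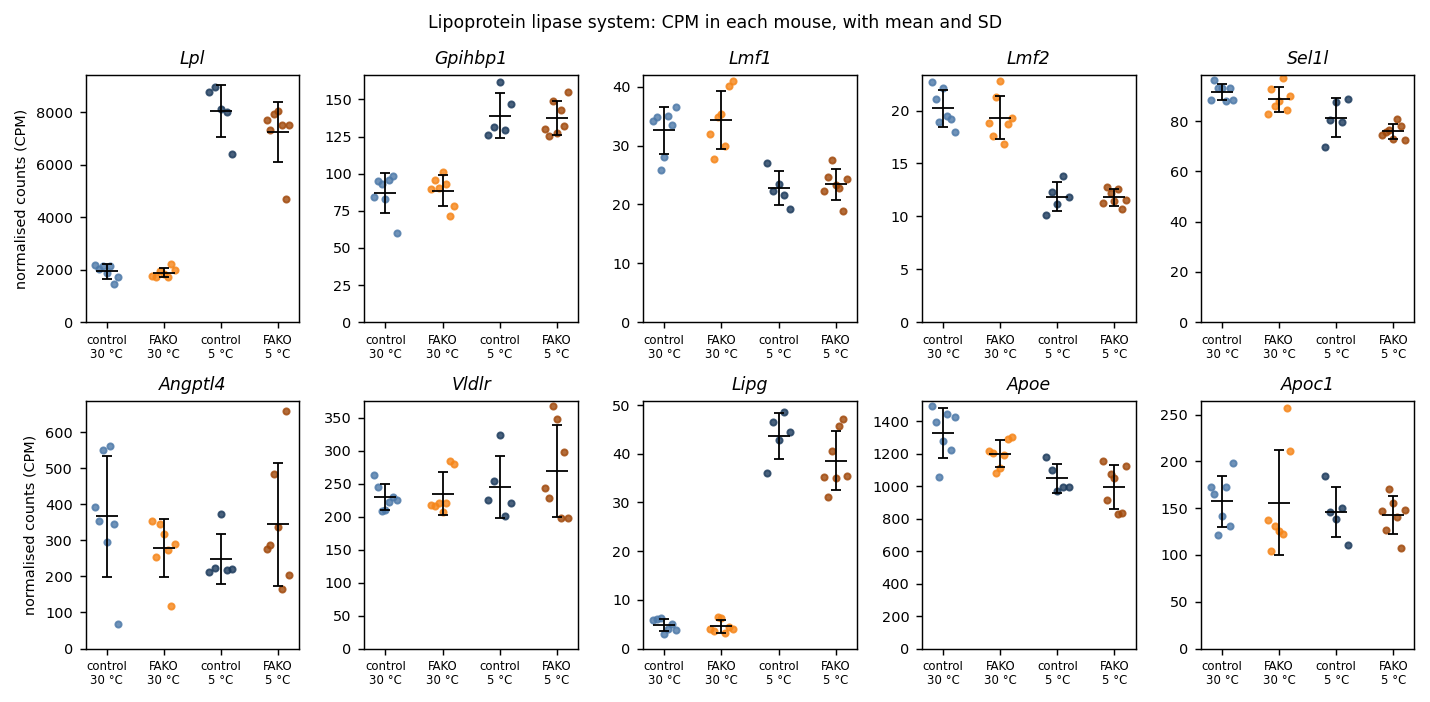
Normalised counts (CPM) of the 10 members in each mouse, with 1 point per mouse in 4 groups (control and FAKO, 30 °C and 5 °C) and black marks for the mean and SD. Lpl, Lipg and Gpihbp1 are higher in every mouse at 5 °C than in any at 30 °C, Lmf2 is lower in every one, and Angptl4 spreads from 66.8 to 657 CPM with no separation of the groups.

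Of the 10 members, the lipases changed most. Lpl (ENSMUSG00000015568.16, chromosome 8 of GRCm38 from 68880491 to 68907448, plus strand) had 1448 to 2189 CPM (median 2035) in the 7 control mice at thermoneutrality and 8768, 8939, 8129, 7987 and 6405 CPM in the 5 after cold. In mice labelled FAKO it had 1722 to 2211 CPM (median 1829) at thermoneutrality and 7691, 7319, 7937, 8051, 7520, 4688 and 7516 CPM after cold. Every mouse in cold was above every mouse at thermoneutrality in both genotypes, and FAKO mouse 27 was the lowest of the mice in cold. The control mean was 1939 ± 276 CPM (SD, n = 7) at thermoneutrality and 8046 ± 1003 CPM (SD, n = 5) after cold, a 4.15-fold rise (log2 fold change 2.05, SE 0.12, edgeR adjusted p = 3.44e-14). The rise in mice labelled FAKO was 3.85-fold (log2 fold change 1.94, SE 0.11, edgeR adjusted p = 2.33e-14). Non-overlap of this kind was common: all mice in cold were above all mice at thermoneutrality for 23.5% of the genes tested in control mice and 21.1% in mice labelled FAKO, and all were below for 22.9% and 19.3%.

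Lipg, which encodes endothelial lipase, an enzyme of the same family that acts mainly on the phospholipids of high density lipoproteins, started from a low level. The gene is ENSMUSG00000053846.4 and lies on chromosome 18 from 74939322 to 74961263 on the minus strand. Control mice had 3.08 to 6.26 CPM (median 4.99) at thermoneutrality, from as few as 51 reads, and 36.1, 46.5, 42.7, 48.6 and 44.5 CPM after cold. Mice labelled FAKO had 3.15 to 6.52 CPM (median 3.95) at thermoneutrality and 31.1 to 47.1 CPM (median 35.4) after cold. No mouse in cold had fewer than 504 reads of Lipg, and no value overlapped with thermoneutrality. The rise was 8.96-fold in control mice (log2 fold change 3.16, SE 0.17, edgeR adjusted p = 9.2e-15) and 8.49-fold in mice labelled FAKO (log2 fold change 3.08, SE 0.16, adjusted p = 4.64e-15). As a level per kilobase of exon, Lipg was still a small part of the transcripts of both lipases together. Its share was 0.56% ± 0.14 (SD, n = 7) in control mice at thermoneutrality and 1.21% ± 0.23 (SD, n = 5) after cold. In mice labelled FAKO the share was 0.54% ± 0.15 (SD, n = 7) and 1.23% ± 0.44 (SD, n = 7). These shares use the length of all annotated exons and are smaller over the longest transcript. By that length, control means at thermoneutrality were 1.29 CPM per kb for Lipg and 471 for Lpl. After cold they were 11.5 and 1955 CPM per kb.

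Gpihbp1, the protein that binds the lipase and holds it on the capillary wall, rose less. It is ENSMUSG00000022579.10 on chromosome 15 from 75596628 to 75599481, plus strand. Control mice had 60.0 to 98.6 CPM (median 93.4) at thermoneutrality and 126, 132, 162, 129.5 and 147 CPM after cold. Mice labelled FAKO had 71.4 to 101 CPM (median 90.7) at thermoneutrality and 126 to 155 CPM (median 132) after cold. Within each genotype, the values after cold did not overlap with those at thermoneutrality. The rise was 1.60-fold in control mice (log2 fold change 0.68, SE 0.10, edgeR adjusted p = 1.42e-06) and 1.55-fold in mice labelled FAKO (log2 fold change 0.63, SE 0.09, adjusted p = 9.98e-07).

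Since Gpihbp1 is made by capillary endothelial cells, it was also set against 12 endothelial markers in the same mouse. In bulk tissue fewer cells of a type and less RNA per cell cannot be told apart. The summed level of the 12 markers was 926 to 1187 CPM in control mice and 1017 to 1402 CPM in mice labelled FAKO at thermoneutrality, and 1282 to 1481 CPM and 1087 to 1439 CPM after cold. In cold 7 of the 12 markers rose and 4 fell in control mice, and 5 rose and 5 fell in mice labelled FAKO. The log2 ratio of Gpihbp1 to this sum was higher in cold by 0.34 in control mice, in 5 of 5 mice (exact permutation test, two-sided p = 0.00253, adjusted p = 0.00874 over 12 tests). In mice labelled FAKO it was higher by 0.52, in 7 of 7 mice (exact permutation p = 0.000583, the smallest that 7 mice against 7 can give, adjusted p = 0.0035). Neither genotype difference of this ratio passed the test (-0.09 at thermoneutrality, exact permutation with adjusted p = 0.226, and 0.09 after cold, adjusted p = 0.433). Without control mouse 7, whose ratio was the lowest of its group, the difference at thermoneutrality was -0.14 and passed (exact permutation, adjusted p = 0.0163). This was the only 1 of 14 mice left out in turn that changed the call.

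The maturation genes fell in cold. Lmf1 (ENSMUSG00000002279.18, chromosome 17 from 25579085 to 25662826, plus strand) encodes the factor that folds and assembles lipase dimers in the endoplasmic reticulum. It had 25.9 to 36.6 CPM (median 34.1) in control mice at thermoneutrality and 27.1, 22.4, 23.4, 21.6 and 19.2 CPM after cold. With the FAKO label it had 27.8 to 41.0 CPM (median 34.8) and then 18.9 to 27.6 CPM (median 23.4). The control groups overlapped by 1 mouse in cold, and the groups labelled FAKO did not overlap. The log2 fold change in cold was -0.52 in control mice (SE 0.11, edgeR adjusted p = 0.000121) and -0.56 with the FAKO label (SE 0.10, adjusted p = 1.25e-05).

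Lmf2, a paralogue of Lmf1, is ENSMUSG00000022614.7 on chromosome 15 from 89351004 to 89355659, minus strand. Control mice had 18.0 to 22.7 CPM (median 19.5) at thermoneutrality and 10.1, 12.3, 11.2, 13.8 and 11.8 CPM after cold. The FAKO groups had 16.8 to 22.8 CPM (median 18.8) and 10.7 to 12.8 CPM (median 11.6). Every mouse in cold was below every mouse at thermoneutrality in both genotypes. The log2 fold change was -0.77 in control mice (SE 0.08, edgeR adjusted p = 7.3e-09) and -0.71 with the FAKO label (SE 0.08, adjusted p = 4.04e-09), the largest fall of the 10 members in each.

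Sel1l (ENSMUSG00000020964.14, chromosome 12 from 91806043 to 91849157, minus strand) encodes the adaptor of the Hrd1 ubiquitin ligase in the degradation of misfolded proteins of the endoplasmic reticulum, and is needed for the lipase to leave that compartment. It varied least between mice at thermoneutrality, with 88.1 to 96.2 CPM (median 93.0) in control mice, and had 69.6, 80.3, 87.8, 79.8 and 88.9 CPM after cold. The FAKO groups had 82.7 to 97.1 CPM (median 87.9) and 72.6 to 80.9 CPM (median 75.6). The control groups overlapped through mouse 21 in cold, at 88.9 CPM, and the groups labelled FAKO did not. Its log2 fold change was -0.17 in control mice (SE 0.05, edgeR adjusted p = 0.00804) and -0.23 with the FAKO label (SE 0.05, adjusted p = 0.00026). Without control mouse 16 the value in control mice was -0.12, only just past the threshold (edgeR adjusted p = 0.0479). Other genes of protein quality control in the endoplasmic reticulum went both ways: in control mice the chaperone Hyou1 rose by 0.67 and the ligase Syvn1, the partner of Sel1l, by 0.55, while the lectin Os9 fell by 0.23. These 3 were picked out after their values were seen.

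**Figure D2:**
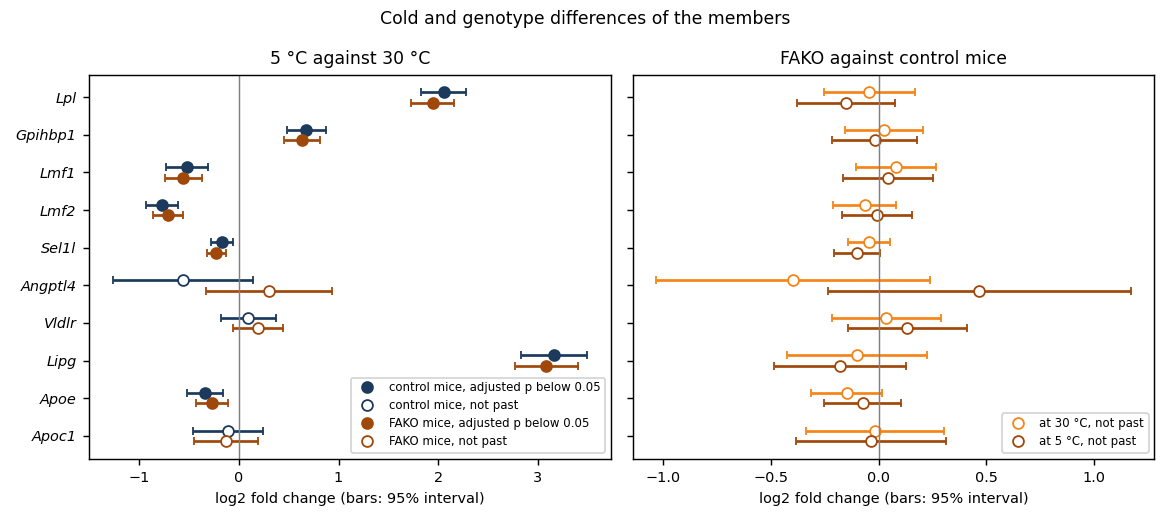
Log2 fold changes of the 10 members with 95% intervals, on the left for 5 °C against 30 °C within each genotype and on the right for FAKO against control mice at each temperature. Filled points are past an edgeR adjusted p of 0.05. The cold changes of the genotypes lie side by side for Lpl, Lipg, Gpihbp1, Lmf1, Lmf2, Sel1l and Apoe, no point on the right is filled, and Angptl4 has the widest intervals.

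Angptl4, the inhibitor that unfolds lipoprotein lipase, was the most variable member. It is ENSMUSG00000002289.15 on chromosome 17 from 33773750 to 33781830, minus strand. Control mice at thermoneutrality had 392, 354, 550.5, 297, 562, 344 and 66.8 CPM, the last in control mouse 7, and 212, 223, 372, 218 and 219 CPM after cold. Mice labelled FAKO had 354, 253, 344, 317, 274, 119 and 288 CPM at thermoneutrality and 275, 287, 483, 336, 166, 657 and 204 CPM after cold. Apart from mouse 18, the control mice in cold lay within 212 to 223 CPM, while the mice labelled FAKO in cold had both the highest value of all and the lowest of the mice in cold. In control mice the log2 fold change was -0.56 (SE 0.36, edgeR adjusted p = 0.175), and in mice labelled FAKO 0.30 (SE 0.32, adjusted p = 0.41). The difference of these responses was 0.86 (95% interval -0.08 to 1.81, edgeR adjusted p = 0.385). Without control mouse 7 the fall in control mice was larger and passed (log2 fold change -0.77, edgeR adjusted p = 0.0242), and the difference of the responses was 1.04 (adjusted p = 0.154). Without FAKO mouse 27 the cold value in mice labelled FAKO was 0.068 (edgeR adjusted p = 0.857) and the difference of the responses 0.63 (adjusted p = 0.533). With library size alone as the scaling, the value in mice labelled FAKO had the other sign, -0.03 (edgeR adjusted p = 0.939).

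The level of Lpl was set against that of Angptl4 in each mouse, as a log2 ratio of CPM. The ratio was 1.94 to 4.68 in control mice at thermoneutrality (median 2.48) and 4.45 to 5.37 after cold (median 5.20). With the FAKO label it was 2.32 to 4.22 (median 2.65) and 2.83 to 5.50 (median 4.67). Cold raised it by 2.42 in control mice, with 5 of 5 above the mean at thermoneutrality (exact permutation, two-sided p = 0.00505, adjusted p = 0.0121), and by 1.70 in mice labelled FAKO, with 7 of 7 above (exact permutation p = 0.00291, adjusted p = 0.00874). The groups overlapped in both genotypes. Control mouse 7 at thermoneutrality (4.68) was above control mouse 18 in cold (4.45). FAKO mouse 13 at thermoneutrality (4.22) was above FAKO mice 24 (4.04) and 27 (2.83) in cold. The ratio holds the rise of Lpl given above, 2.05 in control mice and 1.94 with the FAKO label. Since Angptl4 did not pass, the higher ratio is not a result separate from that rise. In FAKO mouse 27 the lowest Lpl and the highest Angptl4 of its group came together, but over all 26 mice, with the group means taken off, the log2 CPM of these genes had a Pearson r of -0.08, which was -0.27 without control mouse 7 and 0.16 without FAKO mouse 27. This is a description of mice that share their groups.

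**Figure D3:**
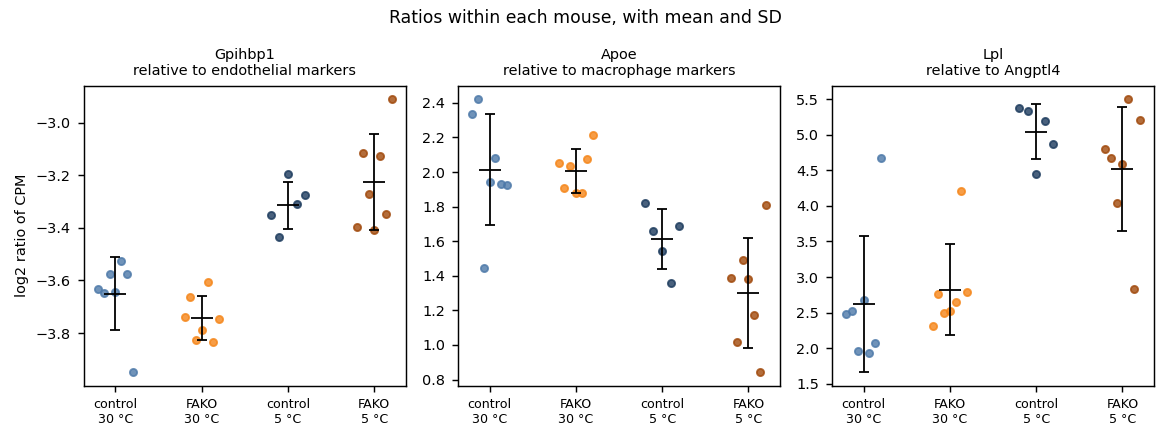
Log2 ratios of CPM within each mouse for Gpihbp1 to the endothelial marker sum, Apoe to the macrophage marker sum and Lpl to Angptl4, with 1 point per mouse and black marks for the mean and SD of each of the 4 groups. The left and right panels are higher at 5 °C and the middle one is lower on average. Control mouse 7 is the low point of the left panel at -3.95 and the high point at 30 °C of the right one at 4.68.

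Vldlr, the receptor that binds triglyceride-rich lipoproteins and aids their lipolysis and uptake, did not pass the test. The gene is ENSMUSG00000024924.14 on chromosome 19 from 27216484 to 27254231, plus strand. It had 208 to 264 CPM (median 225) in control mice at thermoneutrality and 225, 254, 323, 201 and 221 CPM after cold. With the FAKO label it had 208 to 284 CPM (median 220.0) and 198 to 367 CPM (median 244). All 4 groups overlapped, with a wider spread in cold. The log2 fold change in cold was 0.10 in control mice (95% interval -0.18 to 0.37, edgeR adjusted p = 0.565) and 0.19 in mice labelled FAKO (95% interval -0.06 to 0.44, adjusted p = 0.183).

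Apoe, the ligand through which lipoprotein receptors take up remnants, was the only one of the 2 apolipoproteins among the 10 members to pass the test in cold. It is ENSMUSG00000002985.16 on chromosome 7 from 19696109 to 19699188, minus strand. Control mice had 1055 to 1493 CPM (median 1394) at thermoneutrality and 1183, 1103, 971, 995.5 and 997 CPM after cold. Mice labelled FAKO had 1081 to 1304 CPM (median 1203) and 826 to 1154 CPM (median 1049). The groups overlapped, although every mouse in cold was below the mean at thermoneutrality of its genotype. Both genotypes fell, with a log2 fold change of -0.34 in control mice (SE 0.09, edgeR adjusted p = 0.002) and -0.27 with the FAKO label (SE 0.08, adjusted p = 0.0062).

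Apoe is made by macrophages as well as adipocytes, so it was compared with 12 macrophage markers. Their summed level was 260.5 to 388 CPM in control mice and 264 to 324 CPM in mice labelled FAKO at thermoneutrality, and 309 to 389 CPM and 320 to 464 CPM after cold. In cold 4 of the 12 rose and 3 fell in control mice, and 7 rose and 2 fell in mice labelled FAKO. The log2 ratio of Apoe to the sum was lower in cold, with a difference of -0.71 in 7 of 7 mice labelled FAKO (exact permutation, two-sided p = 0.000583, adjusted p = 0.0035). In control mice the difference was -0.40, in 5 of 5 mice, and did not pass after adjustment (exact permutation p = 0.0278, adjusted p = 0.0556). Leaving out control mouse 3 or 16 took it to -0.49 and -0.45, past the threshold (exact permutation, adjusted p = 0.0104 and 0.0485). These were 2 of 12 mice left out in turn, and the adjusted p reached 0.121 with another (exact permutation). Between genotypes the ratio differed by -0.01 at thermoneutrality (exact permutation, adjusted p = 0.975) and by -0.31 after cold (adjusted p = 0.121). Without FAKO mouse 28 the difference after cold was -0.40 (exact permutation, adjusted p = 0.0346). This was the only 1 of 12 mice left out in turn that changed the call, and the adjusted p reached 0.227 with another (exact permutation). With the mean log2 CPM of the markers in place of their sum, the difference after cold was -0.26 (exact permutation, adjusted p = 0.222).

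Apoc1, a small apolipoprotein that inhibits lipoprotein lipase, is ENSMUSG00000040564.14 on chromosome 7 from 19689481 to 19692660, minus strand. It had 121 to 198 CPM (median 165) in control mice at thermoneutrality and 184, 146, 138.5, 151 and 110.4 CPM after cold. The FAKO groups had 104 to 257 CPM (median 130.5) and 108 to 170.4 CPM (median 146.5). All groups overlapped, and the widest spread was at thermoneutrality in mice labelled FAKO. The log2 fold change in cold was -0.11 in control mice (95% interval -0.46 to 0.24, edgeR adjusted p = 0.605) and -0.13 in mice labelled FAKO (95% interval -0.45 to 0.19, adjusted p = 0.49).

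Whether the label altered the system was asked next. Between the genotypes no member passed the test at thermoneutrality (0 of 10, against 0.081% of all genes tested) or after cold (0 of 10, against 0.139%), and none differed in its cold response (0 of 10, against 1.16%). In each of these comparisons edgeR also gave 0 members with an unadjusted p below 0.05, and DESeq2 gave 0 with an adjusted p below it. Few genes passed at all, so that counts of 0 were close to the background. The intervals, which are approximate and not adjusted for the number of genes, show how precisely each difference was estimated. For Lpl the log2 fold change was -0.04 at thermoneutrality (95% interval -0.25 to 0.17) and -0.15 after cold (95% interval -0.38 to 0.08), and its cold responses differed by -0.11 (95% interval -0.42 to 0.20). For Gpihbp1 it was 0.02 (95% interval -0.16 to 0.20) and -0.02 (95% interval -0.22 to 0.18). For Lipg it was -0.10 (95% interval -0.43 to 0.22) and -0.18 (95% interval -0.48 to 0.13). Angptl4 had the least precise values, -0.40 (95% interval -1.03 to 0.24) at thermoneutrality and 0.47 (95% interval -0.23 to 1.17) after cold. For Apoe the value at thermoneutrality was -0.15 (95% interval -0.31 to 0.01).

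**Figure D4:**
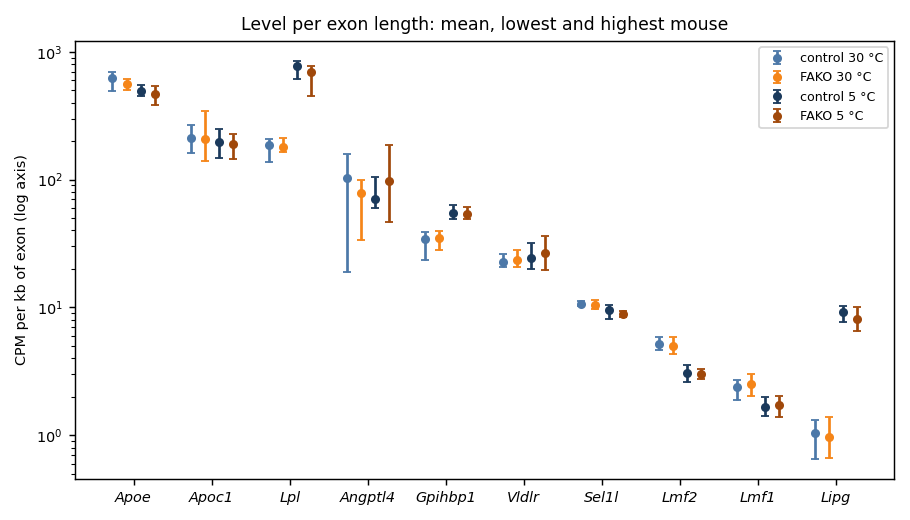
Levels of the 10 members in CPM per kilobase of exon on a log axis, ordered by the level in control mice at 30 °C, with points for the means of the 4 groups and bars from the lowest to the highest mouse. Lpl, below Apoe and overlapping with Apoc1 at 30 °C, moves to the first place by mean at 5 °C. Lipg moves from the last place up to the level of Sel1l. The order of Lpl and Apoc1 at 30 °C depends on the transcript length used.

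To compare the members with each other, CPM were divided by the length of all annotated exons. Per kilobase, Apoe was highest in control mice at thermoneutrality (622 ± 72.0 CPM per kb, SD, n = 7), apart from all others. Apoc1 (212), Lpl (185), Angptl4 (103.5), Gpihbp1 (34.1) and Vldlr (22.8) followed, each overlapping with the next over mice. Below them Sel1l (10.7), Lmf2 (5.20), Lmf1 (2.40) and Lipg (1.03) did not overlap. Angptl4 overlapped with Gpihbp1, and Gpihbp1 with Vldlr, only through control mouse 7. In that mouse Angptl4 was at 18.9 CPM per kb and Gpihbp1 at 23.5. After cold Lpl was highest, with 768 ± 95.7 CPM per kb (SD, n = 5) in control mice, apart from Apoe at 491, and with 691.5 ± 110.4 CPM per kb (SD, n = 7) in mice labelled FAKO, where it overlapped with Apoe at 466.3. Lipg rose to 9.27 in control mice, overlapping with Sel1l at 9.50. Over the longest transcript instead of all exons, Lpl was 471 CPM per kb at thermoneutrality in control mice, above Apoc1 at 296, and Lmf1 was above Lmf2, 8.43 against 6.20. The order of these pairs therefore depends on the transcript length used.

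Within groups, the members followed each other to different degrees. With the group means taken off the log2 CPM, the 45 pairs of members had Pearson r from -0.57 (Gpihbp1 with Apoc1) to 0.83 (Lmf1 with Apoc1) over 26 mice. Apoe and Apoc1, neighbours on chromosome 7, had an r of 0.64, and Lpl and Apoc1 an r of 0.58. The maturation genes were not positively related throughout, with an r of -0.49 for Lmf1 and Sel1l, 0.10 for Lmf1 and Lmf2 and 0.04 for Lmf2 and Sel1l. Gpihbp1 and Angptl4 had an r of 0.65, which was 0.40 without control mouse 7. These values describe mice that share their libraries' depth and composition. By the same measure over 8172 genes with at least 10 CPM, the genes most like Lpl were Usp2 (r = 0.76), Naa80 (0.74) and Zfp839 (0.74). Most like Gpihbp1 were Heyl (0.81), Afap1l1 (0.80) and Jcad (0.80). Most like Angptl4 were Fermt2 (0.89), Txnip (0.88) and Pdk4 (0.87), and most like Vldlr were Tbl1xr1 (0.86), Srp72 (0.85) and Als2cr12 (0.83).

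A further 35 genes of lipoprotein handling were listed: other apolipoproteins, proprotein convertases that cleave lipases and Angptl proteins, receptors, lipid transfer proteins, partners of Sel1l and the transcription factors Meox2 and Tcf15. Of these, 28 were tested. In cold 8 rose, 14 fell and 6 did not pass in control mice, and 8 rose, 11 fell and 9 did not pass in mice labelled FAKO, with median log2 fold changes of -0.31 against -0.01 for all genes tested and of -0.17 against -0.03. The shares of all genes tested were 31.6% higher and 33.4% lower in control mice and 33.7% and 34.9% in mice labelled FAKO. None of the 28 passed in the comparisons between genotypes or in the difference of the cold responses.

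The convertase Pcsk5 was at 21.7 ± 3.69 CPM (SD, n = 7) in control mice at thermoneutrality and at 81.3 ± 3.76 CPM (SD, n = 5) after cold (log2 fold change 1.91, SE 0.12, edgeR adjusted p = 1.32e-13). Pcsk6, of the same family, rose by 0.87 (SE 0.12) and the fatty acid transporter Cd36, which takes up what the lipase releases, by 0.96 (SE 0.06), to 3931 ± 90.7 CPM (SD, n = 5). In mice labelled FAKO the log2 fold changes were 1.73 for Pcsk5, 0.74 for Pcsk6 and 1.04 for Cd36. Mttp, which loads lipid onto apolipoprotein B, had log2 fold changes of -1.43 (SE 0.16) in control mice and -0.83 with the FAKO label. Scarb1, the receptor for high density lipoproteins, had -1.39 (SE 0.10) and -1.20, and all of these passed the test. Angptl8, an insulin-responsive relative of Angptl4, fell by 1.26 in the control group (SE 0.47, edgeR adjusted p = 0.0217) and had -0.80 with the FAKO label, which did not pass (edgeR adjusted p = 0.0962). Its range in control mice at thermoneutrality was 8.96 to 120.1 CPM. Among the other apolipoproteins, named after their values were seen, Apob fell (-2.81 in control mice and -2.23 in mice labelled FAKO, at a mean of 0.44 CPM) and Apod rose (0.64 and 1.20).

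Among the 7 genes not tested were Apoc3, Apoa1, Apoa4, Apoa5, Apoc4 and Lipc. Apoc2, the activator of the lipase, was the other and was listed at 0 counts in all 26 mice. Of its exon bases, 79.5% are also annotated to Gm44805 on the same strand, where reads can be left uncounted as ambiguous, so this 0 does not show that Apoc2 was absent. No exon base of the 10 members is shared with another gene on the same strand. The 5 hepatocyte markers summed to at most 1.56 CPM in any mouse, and Fgb was at 0 in all.

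**Figure D5:**
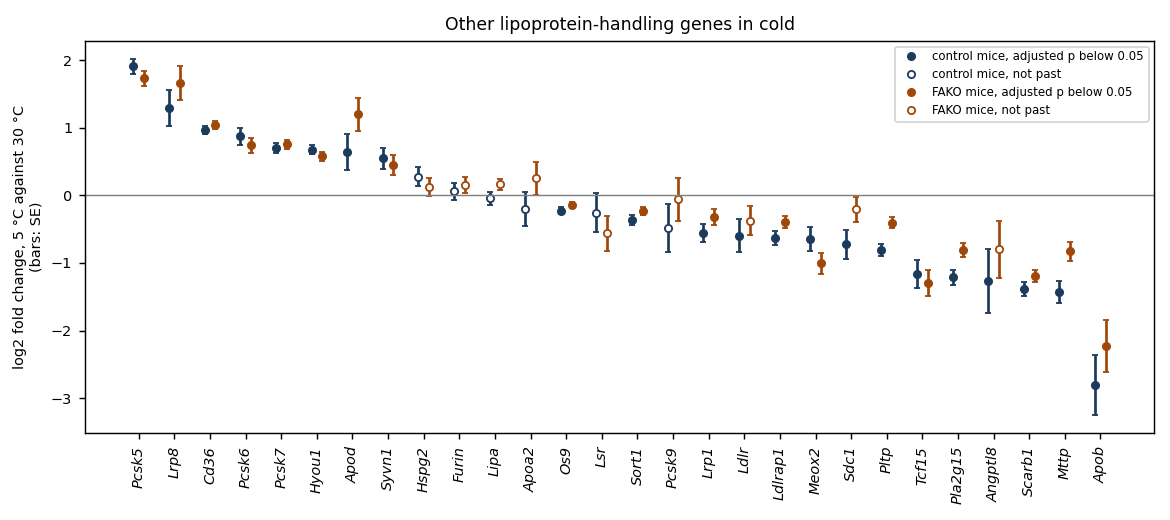
Log2 fold changes in cold (5 °C against 30 °C) of the 28 tested genes of the wider lipoprotein list, with SE, in control mice and mice labelled FAKO, ordered by the value in control mice. Filled points are past an adjusted p of 0.05. Pcsk5 is the highest at 1.91, and Apob, with a mean of only 0.44 CPM, is the lowest at -2.81.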

How the data were processed

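Reads had been aligned by the authors with STAR 2.5.2b (mm10), and featureCounts 1.5.2 with GENCODE M13 had given the deposited counts, which are not normalised. Whether counting used strand is not given in the sources used here. All 26 columns were mapped to samples by name, and groups came from the labels. Members, lists and the rule for the genes named were chosen with earlier results of these data known. The rule names the members, the 3 listed genes with the largest rise and fall in cold in control mice at a mean of at least 1 CPM, and the 3 genes most like each of Lpl, Gpihbp1, Angptl4 and Vldlr. The wider list was shortened by a gene that is not reported here.

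Symbols, positions and exon lengths came from GENCODE M21 (GRCm38, the same build), so lengths may differ from the authors' annotation. Genes were kept with filterByExpr and scaled by TMM factors. edgeR 4.0.16 (R 4.3.3) fitted 1 quasi-likelihood model (legacy mode) to the 4 groups, with Benjamini-Hochberg adjustment over 17286 genes and a threshold of 0.05. The interaction tested the difference of the cold responses, FAKO minus control. Each SE was derived from the quasi-likelihood F statistic, as the absolute log2 fold change divided by the square root of F. Intervals are ± 1.96 SE and so are approximate. Ratios were compared by exact two-sided permutation tests, adjusted over 12 tests. Within groups, all 73 pairs of libraries were further apart than sampling noise (lowest chi-square per gene 5.17). The labels give a group and a running number that does not repeat, and each library was taken as a separate mouse. The numbers have gaps between 14 and 16 and between 19 and 21, for which the sources used here give no reason. Alternatives were DESeq2 1.42.0, other scalings and filters, edgeR's revised method, a muscle marker covariate, only the groups compared, and leaving out each mouse.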

Additional observations from a re-analysis of the deposited data

Results flagged for a closer look

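Of 52 groups of values checked (10 members and 3 ratios in 4 groups), 7 had a mouse far from the others of its group, where chance gives about 2.6 at 1 in 20. The ratios reuse the values of members, and control mouse 7 and FAKO mouse 13 are flagged more than once. The 7 are therefore not independent, and the 2.6 assumes normally distributed values. Lpl in FAKO mouse 27 after cold was 4688 CPM, against 7319 to 8051 CPM in the other 6. Its skeletal muscle marker sum was 3.94 CPM, above the 2.24 CPM of FAKO mouse 23. Its brown adipocyte marker sum was the lowest of its group at 28740 CPM, near the 29140 CPM of FAKO mouse 22. This mouse also had the highest red blood cell (1497 CPM) and macrophage (464 CPM) sums of its group. Its stromal (405 CPM) and nuclear-retained RNA (10340 CPM) sums were the lowest. The part of these sums in the result was not tested. Gpihbp1 in control mouse 7 at thermoneutrality was 60.0 CPM, against 82.8 to 98.6 CPM, and its log2 ratio to the endothelial markers was -3.95, against -3.65 to -3.53. The log2 ratio of Lpl to Angptl4 in the same mouse was 4.68, against 1.94 to 2.67. This is the mouse with 14.3% mitochondrial counts and a muscle marker sum of 6163 CPM, whose part in these values was not tested. Angptl4 in FAKO mouse 13 at thermoneutrality was 119 CPM, against 253 to 354 CPM, and its log2 ratio of Lpl to Angptl4 was 4.22, against 2.32 to 2.79. Angptl4 in control mouse 18 after cold was 372 CPM, against 212 to 223 CPM, in the library with the highest total of all, 25732258 counts.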

How the results depend on the processing

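No paired analysis was possible because the groups share no replicate number. The count of members past the threshold stayed at 7 for cold and 0 for the other comparisons under all 39 combinations of a comparison and another setting and all 78 that left out 1 mouse, except for 8 in cold in mice labelled FAKO with library size alone and 8 in cold in control mice without control mouse 7. Of 780 member values with 1 mouse left out, 779 kept their side of the threshold and 1 did not: Angptl4 in cold in control mice without control mouse 7. Of 390 under other settings 1 changed, Apoc1 in cold in mice labelled FAKO with library size alone (-0.46, adjusted p = 0.0249). That scaling moved the median log2 fold change of all genes to -0.14 and -0.34 for cold in control and FAKO mice and to 0.13 for the label at thermoneutrality, and upper-quartile factors moved it to -0.12 and -0.18 for cold. The ratio of Apoe to macrophage markers in cold in control mice ranged from -0.49 to -0.33 with 1 mouse left out, its difference between genotypes after cold from -0.40 to -0.24, and that of Gpihbp1 to endothelial markers at thermoneutrality from -0.14 to -0.073. Over all genes, the label at thermoneutrality gave 14 calls, 48 with DESeq2, 34 with library size alone, 9 with no filter and 93 without control mouse 7. After cold it gave 24, and 197, 5 and 15 in the same order, 45 with at least 10 counts in every library, 9 with only the groups compared and 100 without FAKO mouse 22. The difference of the cold responses gave 200, and 488 with DESeq2, 27 with no filter and 49 to 371 with 1 mouse left out. The causes were not tested. Of 40 levels per kilobase, 34 moved by more than 1 SD with the longest transcript. Depth limits Lipg at thermoneutrality most, with 51 to 113 reads.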
